A study of Mus musculus with 7 samples.

Results

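Heat shock genes and immediate early genes were followed in alveolar macrophages, the resident phagocytes of the lung airspaces, of Cish knockout (KO) and wild-type (WT) mice. The members are 40 named genes, 23 chaperones, cochaperones and heat shock factors and 17 early response genes, out of 26143 genes with a symbol in the table. They were listed by name as chaperones and early factors of programmes that are known to rise with cell handling. The list was made with earlier results of these data known. All 40 were found, and 39 passed the filter on low counts. Egr3, an early growth response factor, did not pass, with 0.0559 to 0.272 CPM over the libraries. Levels are given as CPM, the read count of a gene scaled to the size of its library. RNA was sequenced from sorted cells of Cish KO mice (3 libraries) and WT mice (4 libraries), all C57BL/6 and 4 months old, and per the labels the cells were sorted straight into TRIzol LS. Cish encodes a SOCS family protein that restrains cytokine receptor signalling. The labels give the KO by gene name alone and do not name the mouse behind a library. The p-values therefore measure only the spread between these libraries, which may be technical.

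Heat shock proteins are chaperones that bind unfolded proteins and help them refold. When misfolded protein accumulates, the transcription factor HSF1 is released from chaperones, binds heat shock elements in promoters and induces the stress-responsive members within minutes, while other members are made at a steady rate in unstressed cells. Immediate early genes are induced without new protein synthesis when kinase pathways activate factors already present, such as SRF and CREB. Many encode short-lived AP-1, EGR or NR4A transcription factors or feedback inhibitors. Both programmes are known to respond to tissue dissociation and cell sorting.

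Promoter stretches of members that the results turn on are shown first. Of the 40 members, 30 had an entry in the RefSeq promoter table (GRCm38.p6, the assembly of mm10), from 250 bases before to 50 bases after the start. The heat shock element was searched as GAANNTTC and TTCNNGAA, each its own reverse complement. At least 1 such pair of units was found for 11 of 16 heat shock genes and 2 of 14 immediate early genes, against 15.8% of all 18315 genes with a promoter of that length. The stretches below lie upstream of a RefSeq start of the gene and are written 5′ to 3′ on the strand of the gene, with the pairs of units in capitals. Hspd1 has more than 1 start in that table, and its stretch is upstream of the inner one and within an exon of Hspd1. The Hspe1 stretch, at the same position, also overlaps an exon of Hspd1, and the Fkbp4 stretch overlaps an exon of Gm10069. Hspa1a and Hspa1b are shown because they carried the most reads, Hspb1 because its range between libraries was the widest, Hspe1 and Hspd1 because they share 1 site, Fkbp4 because it was the member with the smallest p, and Jun as an early gene that holds the element.
Hspa1a (chr17:34972223-34972290, minus strand): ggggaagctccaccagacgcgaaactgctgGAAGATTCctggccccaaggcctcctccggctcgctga
Hspa1b (chr17:34959305-34959372, minus strand): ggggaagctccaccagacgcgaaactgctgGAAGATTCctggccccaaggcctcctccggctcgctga
Hspb1 (chr5:135887772-135887859, plus strand): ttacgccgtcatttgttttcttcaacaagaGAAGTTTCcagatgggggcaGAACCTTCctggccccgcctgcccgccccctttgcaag
Hspe1 (chr1:55088053-55088082, plus strand): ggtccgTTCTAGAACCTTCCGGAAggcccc
Hspd1 (chr1:55088053-55088082, minus strand): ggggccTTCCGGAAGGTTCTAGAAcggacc
Fkbp4 (chr6:128438789-128438818, minus strand): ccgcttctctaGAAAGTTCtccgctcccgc
Jun (chr4:95052313-95052380, minus strand): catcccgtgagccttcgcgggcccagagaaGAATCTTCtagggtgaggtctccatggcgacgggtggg

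The Hspa1a and Hspa1b stretches are identical, and 247 of the 250 bases upstream of both genes are the same. Hspe1 and Hspd1 lie head to head, so their stretch is 1 site read on both strands, and the pairs of units within it overlap. A longer element of 3 alternating units was found for Chordc1, Hspd1, Hspe1 and Hsph1 and for no immediate early gene, against 0.622% of all promoters. The cyclic AMP response element TGACGTCA, which binds CREB and ATF factors, was found for Btg2 and Dusp1 among the immediate early genes, for 0 of 16 heat shock genes and for 2.56% of all promoters. Both stretches are shown with the element in capitals.
Btg2 (chr1:134079284-134079351, minus strand): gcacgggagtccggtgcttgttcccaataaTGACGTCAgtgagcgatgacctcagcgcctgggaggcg
Dusp1 (chr17:26508578-26508645, minus strand): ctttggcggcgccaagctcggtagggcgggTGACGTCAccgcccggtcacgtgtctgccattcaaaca

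On both strands, the AP-1 site TGANTCA was found for Bag3 alone (8.30% of all promoters), the EGR site GCGTGGGCG for Dnaja1 alone (0.972%), TATAAA for Stip1, Fos and Junb (14.2%) and the CArG box, bound by SRF, for Zfp36 alone (1.75%). A match describes letters in this window and does not show binding.

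Across the series, library totals were 26676988 to 30870607 counts in KO and 30511397 to 34347648 in WT. Cish had 12.9, 14.3 and 10.9 CPM in KO and 46.3, 29.6, 38.1 and 67.9 CPM in WT, without overlap (log2 fold change -1.84, SE 0.26, adjusted p 0.0519 by edgeR, 2.81e-11 by DESeq2). Alveolar macrophage markers summed to 93000 to 121000 CPM in KO and 61400 to 114000 in WT and all 10 markers passed the filter. Of these, 5 (50%) had an unadjusted p below 0.05 by edgeR, beside 18.0% of all genes. After adjustment edgeR called 0 and DESeq2 called 2, beside 0.0862% and 5.71% of all genes. Siglecf, a surface marker of these cells, had 372, 455 and 433 CPM in KO and 575, 587, 553 and 521 CPM in WT, without overlap (log2 fold change -0.41, SE 0.09, adjusted p 0.0950 by edgeR, 0.00323 by DESeq2). The other called by DESeq2 was Mrc1, higher in KO (log2 fold change 0.29, adjusted p 0.139 by edgeR, 0.0370 by DESeq2). Fabp4, Chil3 and Car4 made up the rest of the 5 and were also higher in KO, with overlapping groups. Their log2 fold changes were 1.27, 1.01 and 0.99 (adjusted p 0.141, 0.181 and 0.233 by edgeR). Endothelial markers were low, and their summed levels over 5 genes, 4.34 to 9.54 CPM in KO and 0.954 to 3.66 CPM in WT, did not overlap. Each of the 5 had an unadjusted p below 0.05 by edgeR, beside 18.0% of all genes (9.15% higher in KO). After adjustment edgeR called 0 of them and DESeq2 called 4 (Cdh5, Tek, Cldn5 and Pecam1), beside 0.0862% and 5.71% of all genes. Hemoglobin and Alas2 transcripts summed to 546, 855 and 284 CPM in KO 1 to KO 3 and 348, 77.7, 13.5 and 328 CPM in WT 1 to WT 4, highest in KO 2 and lowest in WT 3. Their part in the results on heat shock and immediate early genes was not tested.

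Single libraries stood apart in both families, and not in step with genotype. Heat shock genes were highest in KO 2 for 14 of the 23 genes and in WT 4 for 5, and lowest in WT 1 for 13. Their mean log2 CPM was 6.98, 7.55 and 6.98 in KO 1 to KO 3, and 6.58, 6.83, 6.91 and 7.31 in WT 1 to WT 4. The KO mean of 7.17 ± 0.329 (SD, n = 3) and the WT mean of 6.91 ± 0.303 (SD, n = 4) differed by less than the spread within either genotype. For the 16 immediate early genes that passed the filter, KO 2 and WT 3 were the high libraries, among the top 2 for 12 and 14 genes. Their mean log2 CPM was 8.27, 9.17 and 8.29 in KO 1 to KO 3 and 8.22, 8.59, 9.12 and 8.31 in WT 1 to WT 4, and averaged 8.58 ± 0.514 (SD, n = 3) in KO and 8.56 ± 0.405 (SD, n = 4) in WT. The families thus ranked the libraries differently. WT 4 followed KO 2 for heat shock genes but was among the top 2 for 0 of 16 early genes. WT 3 followed KO 2 for early genes but lay below all KO libraries for heat shock genes by mean log2 CPM. By summed CPM of the heat shock genes, WT 3 (15500) lay above KO 1 (11351) and KO 3 (14802). In bulk samples, fewer cells of a type and less RNA per cell cannot be told apart.

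**Figure D1:**
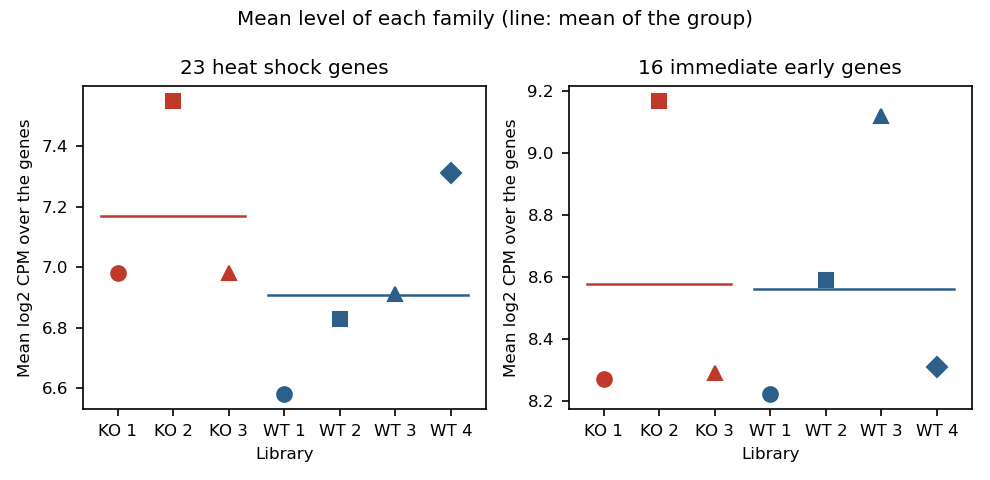
Mean log2 CPM over the 23 heat shock genes (left) and the 16 immediate early genes that passed the filter (right) in each library, KO in red left of WT in blue, with a line at each genotype's mean. KO 2 is highest in both panels, followed by WT 4 for heat shock genes and WT 3 for immediate early genes.

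**Figure D2:**
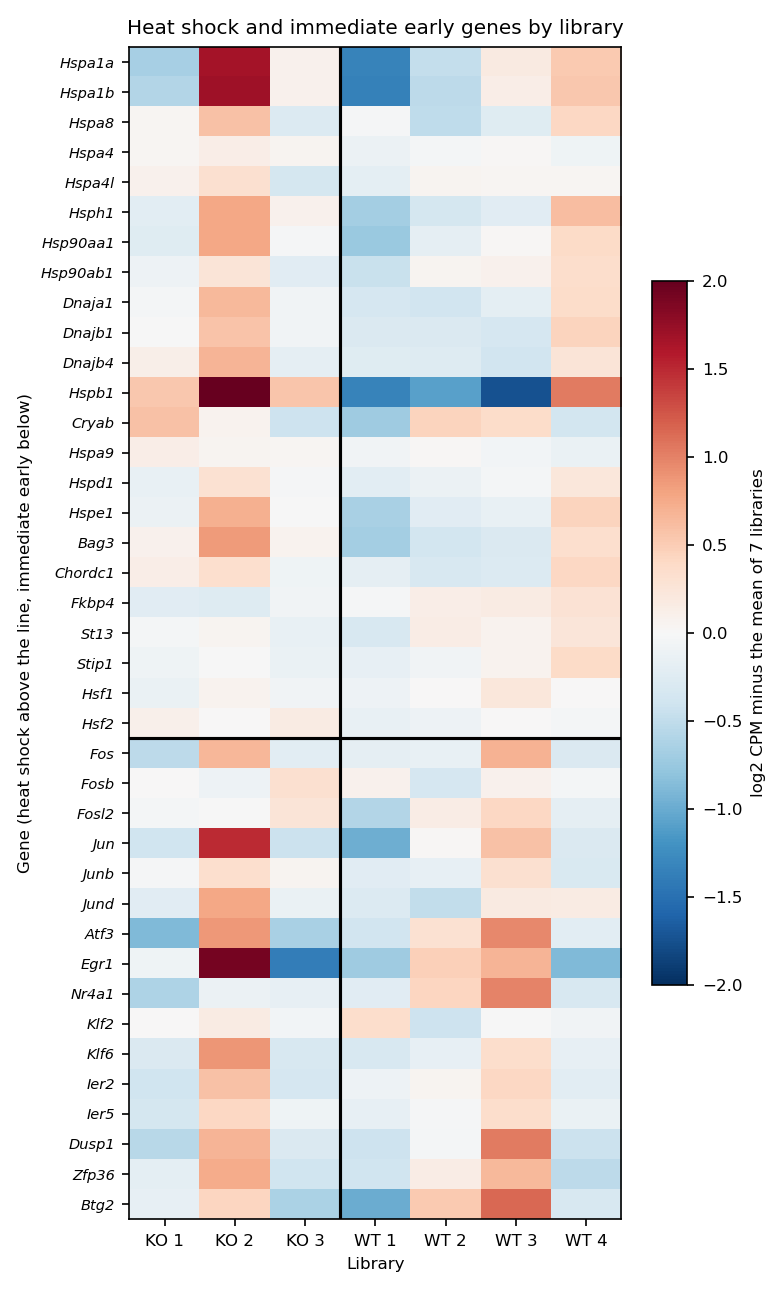
Log2 CPM of each gene in each library minus the gene's mean over the 7 libraries, KO columns left of WT columns, heat shock genes above the black line and immediate early genes below it. Red marks libraries above the gene's mean, seen in KO 2 for most rows, in WT 4 for most heat shock rows and in WT 3 for most immediate early rows.

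By the median of each family, though not for every member, levels varied more between libraries of 1 genotype than over all genes. The within-genotype SD of log2 CPM had a median of 0.35 over the heat shock genes and 0.50 over the immediate early genes, beside 0.19 over all 12759 genes tested. It was largest for Egr1 (1.22, the 98.7th percentile of all genes), Hspb1 (1.08) and Hspa1a (0.98). Above the 90th percentile of all genes lay 3 of 23 heat shock genes and 5 of 16 immediate early genes. Below the all-gene median lay Hspa4 and Hspa9 (both 0.06), Hsf2 (0.07), and Fkbp4 and Hsf1 (both 0.12).

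Hspa1a and Hspa1b, the stress-inducible cytosolic Hsp70 pair, are neighbouring genes without introns (chr17:34969190-34972156 and chr17:34956436-34959238, GENCODE M21 on mm10). Together they took 0.596%, 2.87% and 0.980% of all counts in KO 1 to KO 3, and 0.382%, 0.688%, 1.04% and 1.29% in WT 1 to WT 4. Hspa1b had 4004, 19345 and 6369 CPM in KO and 2359.8, 4194, 6575 and 8686 CPM in WT. Hspa1a had 2070.4, 10412 and 3497 CPM in KO and 1307, 2368, 3727 and 4734 CPM in WT. KO 2 was the highest library in both genes, followed by WT 4, while KO 1 and KO 3 lay within the WT range. The log2 fold change, KO over WT, was 0.81 (SE 0.55, adjusted p 0.470) for Hspa1a and 0.86 (SE 0.55, adjusted p 0.440) for Hspa1b by edgeR's quasi-likelihood test, and -0.13 and -0.08 without KO 2. Their coding sequences are 99.4% identical, and 82.3% of 50-base windows of Hspa1a occur exactly in Hspa1b, so reads of the pair cannot be assigned with certainty. The ratio of Hspa1b to Hspa1a counts stayed between 1.76 and 1.93 in all 7 libraries, and the summed pair gave a log2 fold change of 0.84 (SE 0.55, adjusted p 0.450).

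Hspa8, the constitutive cytosolic Hsp70, had 1408, 2072 and 1138 CPM in KO and 1351, 965, 1158 and 1836 CPM in WT. KO 2 and WT 4 were again the high libraries, and KO 3 lay below WT 1 and WT 3. Hsph1 (Hsp110), which recharges Hsp70 by exchanging its nucleotide, had 153, 305 and 188 CPM in KO and 111, 140.0, 151 and 272 CPM in WT, with the same order at the top. The related exchange factor Hspa4 varied little between libraries. It had 202, 215 and 204 CPM in KO and 182, 192, 200.1 and 184 CPM in WT. Its groups did not overlap, and the log2 fold change was 0.13 (SE 0.07, adjusted p 0.405). Hspa4l, its close relative, ranged from 39.1 to 62.0 CPM in KO and from 43.6 to 51.7 CPM in WT.

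The Hsp40 proteins, which deliver clients to Hsp70, followed the same 2 libraries. Dnajb1, the partner of inducible Hsp70, had 219.5, 329 and 211 CPM in KO and 181, 181, 176 and 301 CPM in WT. Dnaja1 ranged from 241 to 396 CPM in KO and from 194 to 326 CPM in WT. Dnajb4 had 13.9, 20.4 and 11.3 CPM in KO and 10.8, 10.8, 9.80 and 15.4 CPM in WT; its log2 fold change was 0.38 (SE 0.22, adjusted p 0.400). In these genes KO 1 and KO 3 exceeded WT 1 to WT 3, and WT 4 exceeded both. Of the Hsp90 pair, which folds kinases and steroid receptors, the inducible Hsp90aa1 spanned 217 to 438 CPM in KO and 154 to 333 CPM in WT. The constitutive Hsp90ab1 spanned 1274 to 1780 CPM in KO and 1096 to 1905 CPM in WT, with WT 4 highest.

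Hspb1 (Hsp27), a small heat shock protein that holds unfolded clients, was low in these cells but had the widest range of the members. It had 3.57, 10.1 and 3.60 CPM in KO and 0.979, 1.16, 0.732 and 5.04 CPM in WT, from 108, 261 and 98 counts in KO and 35, 37, 23 and 161 counts in WT. WT 1 to WT 3 lay below all KO libraries, and WT 4 lay above KO 1 and KO 3. The log2 fold change was 1.54 (SE 0.67, unadjusted p 0.0467, adjusted p 0.269 by edgeR). Without WT 4 it was 2.59 with an adjusted p of 0.0440, and without KO 2 it was 0.86 with an adjusted p of 0.552. Over its 16 alternatives the adjusted p ranged from 0.0155 to 0.552. Fibroblast and muscle markers summed to 9.24, 14.1 and 4.12 CPM in KO and 5.12, 3.19, 2.51 and 9.26 CPM in WT, also highest in KO 2 and, among WT libraries, in WT 4. Acta2, the most abundant of them at 35.1% of the sum, was instead highest in KO 1 (3.50 CPM) and lowest among KO libraries in KO 2 (2.14 CPM). Transcripts of other cells were highest in KO 2 as well, such as the epithelial Scgb1a1 (37.8 CPM) and the summed hemoglobin and Alas2 transcripts (855 CPM). The part of any of these transcripts in the Hspb1 values was not tested. Cryab, the other small heat shock protein, was low, with 0.993 to 1.98 CPM in KO and 0.811 to 1.81 CPM in WT.

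Bag3, a cochaperone that links Hsp70 clients to autophagy, had 118, 202 and 117.5 CPM in KO and 69.8, 86.2, 91.3 and 142 CPM in WT. Only WT 4 among the WT libraries reached the KO range. The log2 fold change of 0.59 (SE 0.26, unadjusted p 0.0506, adjusted p 0.279 by edgeR) was 0.27 without KO 2 and 0.83 without WT 4, with adjusted p values of 0.582 and 0.0887. Chordc1, an Hsp90 cochaperone, had 141, 163 and 121 CPM in KO and 113, 103, 107 and 172 CPM in WT. Its log2 fold change was 0.19 over 7 libraries. WT 4 and KO 3 were set apart in some fits because their columns come last in the table, behind those of the other 5. The labels do not say whether they form a batch. Without them the Chordc1 value was 0.50 with an adjusted p of 0.0415.

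Fkbp4, a prolyl isomerase that joins Hsp90 to steroid receptors (chr6:128429735-128438677), went the other way. It had 150.4, 147 and 168 CPM in KO and 173, 193, 199 and 216 CPM in WT, and the groups did not overlap. It fell by 0.34 on the log2 scale by DESeq2 (adjusted p 0.0367), and edgeR gave -0.33 (SE 0.10, unadjusted p 0.00726, adjusted p 0.140). The fold change lay between -0.39 and -0.28 in all 17 alternatives, and the adjusted p between 0.0367 and 0.491. Stip1 (Hop), which bridges Hsp70 and Hsp90, ranged from 152 to 166 CPM in KO and from 149 to 218 CPM in WT. St13, an Hsp70-interacting protein, ranged from 123 to 142 CPM in KO and from 109 to 162 CPM in WT. WT 4 was the highest library for all 3 genes.

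Among mitochondrial chaperones, the chaperonin pair varied with library more than the Hsp70 did. Hspe1 (Hsp10) ranged from 141 to 251 CPM in KO and from 97.9 to 207 CPM in WT, and Hspd1 (Hsp60) from 194 to 265 CPM in KO and from 186 to 252 CPM in WT. Hspa9 (mortalin) had 298, 282 and 278 CPM in KO and 259, 275, 260.1 and 245.5 CPM in WT. Its groups did not overlap, and the log2 fold change was 0.14 (SE 0.08, adjusted p 0.372).

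The messages of the heat shock factors themselves were steady. Hsf1 had 43.6, 50.2 and 45.5 CPM in KO and 44.9, 48.4, 56.2 and 48.4 CPM in WT, a log2 fold change of -0.09 (SE 0.10, adjusted p 0.651). KO 2 was the highest KO library for Hsf1 and lay below WT 3 alone. Hsf2 had 3.50 to 3.86 CPM in KO and 3.13 to 3.47 CPM in WT, without overlap and with a log2 fold change of 0.16 (SE 0.17, adjusted p 0.641). HSF1 is controlled chiefly at the protein level, which these data do not measure.

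**Figure D3:**
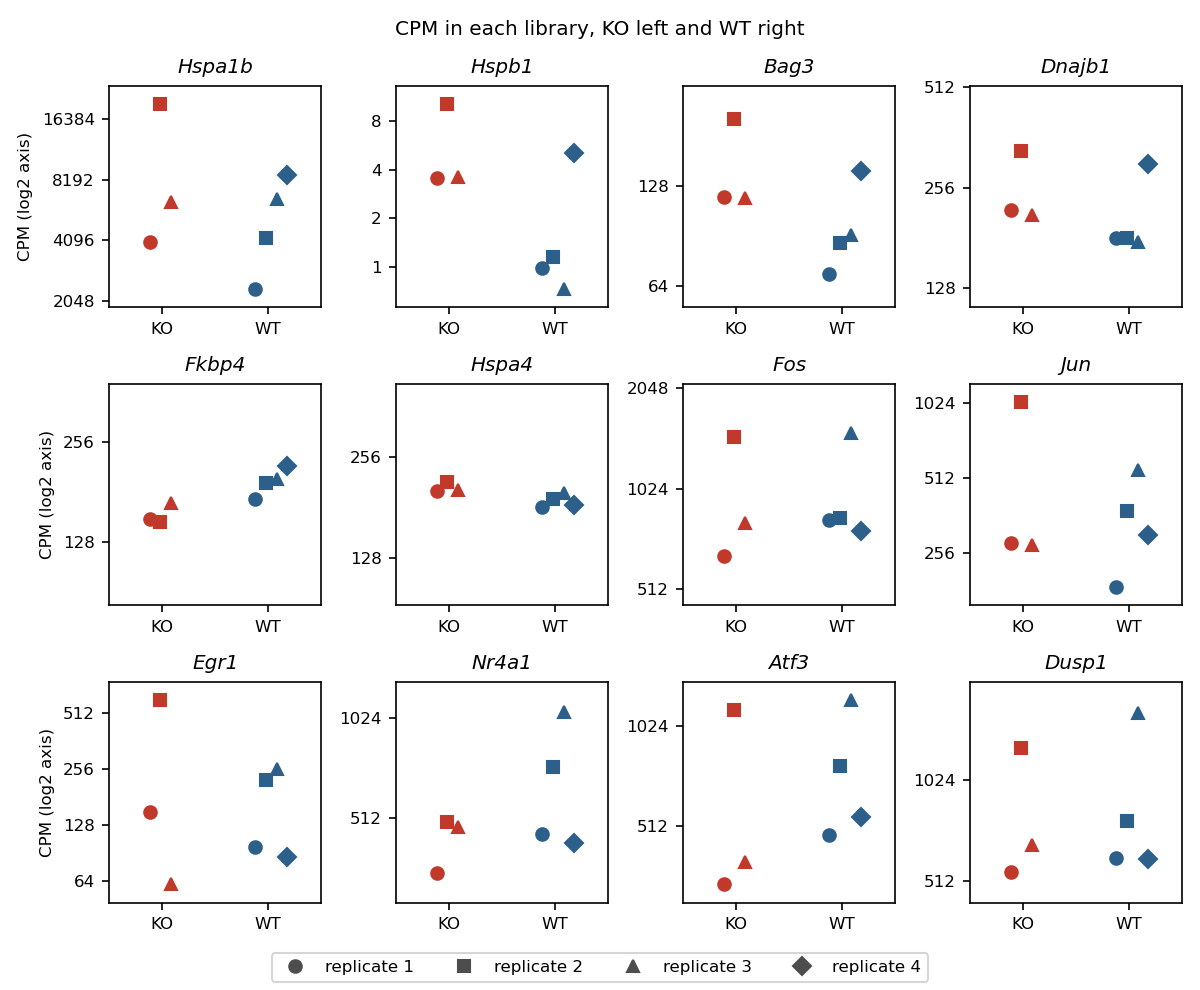
CPM of 12 genes in each library on a log2 axis, KO in red left of WT in blue, with marker shapes for the replicate number. The KO 2 square is highest in Hspa1b, Hspb1, Bag3, Dnajb1, Jun and Egr1, the WT 4 diamond is next in the first 4 of these, and the WT 3 triangle is highest in Fos, Nr4a1, Atf3 and Dusp1.

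Among the AP-1 and ATF factors, the levels followed KO 2 and WT 3 for Fos, Junb, Jun and Atf3. Fos, the AP-1 subunit that pairs with Jun proteins, had 646, 1468 and 807 CPM in KO and 823, 837, 1502 and 765 CPM in WT. KO 2 and WT 3 stood level, well above the other 5 libraries. The log2 fold change was -0.01 (SE 0.31, adjusted p 0.991), or -0.44 without KO 2 and 0.27 without WT 3. Junb, a Jun family AP-1 subunit, had 1103, 1407 and 1163 CPM in KO and 958, 1001, 1401 and 905 CPM in WT; the log2 fold change was 0.20 (SE 0.16, adjusted p 0.546). Jund, a more steadily expressed member of the family, had 706, 1414 and 754 CPM in KO and 682, 587, 937 and 926 CPM in WT; the log2 fold change was 0.29 (SE 0.26, adjusted p 0.588).

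Jun itself had 279, 1035.5 and 275 CPM in KO and 187, 376, 551 and 302 CPM in WT. KO 2 was the highest library, and KO 1 and KO 3 lay below 3 of 4 WT libraries. The log2 fold change of 0.58 (SE 0.50, adjusted p 0.574) became -0.36 without KO 2. Atf3, a stress-induced repressor of inflammatory genes, had 343, 1146 and 399 CPM in KO and 481, 777, 1224 and 545 CPM in WT, so KO 1 and KO 3 were the lowest libraries. Its log2 fold change was -0.27 (SE 0.45, adjusted p 0.796), and -1.03 without KO 2. Fosb and Fosl2, the other Fos proteins listed, were not high in KO 2. Fosb ranged from 105 to 140 CPM in KO and from 88.8 to 119 CPM in WT, highest in KO 3. Fosl2 ranged from 87.6 to 107 CPM in KO and from 59.5 to 119 CPM in WT, highest in WT 3.

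Egr1, a zinc finger factor induced through SRF, had the largest within-genotype SD of log2 CPM of all members tested. It had 151, 603 and 61.7 CPM in KO and 98.3, 223, 256 and 86.9 CPM in WT, so the highest and the lowest library were both KO and differed 9.77-fold. The log2 fold change was 0.71 (SE 0.67, adjusted p 0.615), and -0.64 without KO 2. Nr4a1 (Nur77), an orphan nuclear receptor, was not highest in KO 2. It had 352, 498 and 482 CPM in KO and 458, 727, 1065 and 433 CPM in WT, with WT 3 and WT 2 above all KO libraries. Its log2 fold change of -0.60 (SE 0.30, unadjusted p 0.0778, adjusted p 0.334) was the lowest of the members, lay between -0.82 and -0.28 in 17 alternatives and passed in 0 of them. Klf6, a zinc finger factor, ranged from 325 to 749 CPM in KO and from 326 to 520 CPM in WT, highest in KO 2. Klf2, a quiescence factor, ranged from 72.7 to 84.7 CPM in KO and from 56.7 to 96.4 CPM in WT and was highest in WT 1.

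KO 2 and WT 3 were the top 2 libraries for 4 of the 5 feedback genes. Dusp1, a phosphatase that shuts off MAP kinases, had 546, 1280 and 656 CPM in KO and 599, 776, 1632 and 594 CPM in WT. Zfp36 (tristetraprolin), which destabilises cytokine messages, ranged from 557 to 1226 CPM in KO and from 512 to 1150 CPM in WT. The exception was Btg2, an antiproliferative factor, which had 292, 440.1 and 210.2 CPM in KO and 163, 469, 720.2 and 261 CPM in WT, so that WT 3 and WT 2 lay above KO 2. Ier2 ranged from 282 to 562 CPM in KO and from 321 to 496 CPM in WT, and Ier5, which acts on HSF1, from 373 to 631 CPM in KO and from 426 to 603 CPM in WT. The log2 fold changes of these 5 genes lay between -0.36 and 0.09, and the groups overlapped in each.

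Set per length of annotated exon, Hspa1b was the most abundant member at a mean of 2626 CPM per kilobase, followed by Hspa1a at 1354, Jund at 514, Hsp90ab1 at 504 and Junb at 493. Fos came next at 416, and Hsf2 and Egr3 were last at 0.361 and 0.0399. The order rests on GENCODE M21 exons, which may not be those the authors counted.

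Between genotypes, 0 of the 39 members passed edgeR at an adjusted p of 0.05, beside 11 of 12759 genes tested (0.0862%). At an unadjusted p of 0.05, 2 members passed (5.13%), Hspb1 higher and Fkbp4 lower in KO, beside 18.0% of all genes (9.15% higher and 8.85% lower). DESeq2 called 1 member, Fkbp4, beside 5.71% of all genes. The groups did not overlap for 3 members that were higher in KO (Hspa9, Hspa4 and Hsf2; 7.23% of all genes) and 1 that was lower (Fkbp4; 8.72%). Of the heat shock genes 18 of 23 had a positive log2 fold change, with a median of 0.19. Of the immediate early genes 10 of 16 did, with a median of 0.07, beside 6448 of 12759 and a median of 0.00 for all genes. Both medians rested on single libraries. Without KO 2 they were 0.01 and -0.35, with 0 members called beside 0.0693% of all genes. The heat shock median was 0.40 without WT 4 and 0.33 without KO 3, and the immediate early median was 0.26 without WT 3. Without WT 4 and KO 3 together the heat shock median was 0.50, the immediate early median 0.03, and Hspb1 (log2 fold change 2.83, adjusted p 0.0213) and Chordc1 were called, beside 4.57% of all genes. Hspb1 was the 1 member called without WT 4, beside 2.25% of all genes. Other fits called 0 members without KO 3 (1.67% of all genes), with no filter (1.79%), with a term for WT 4 and KO 3 (0.149%) and by limma voom (0.361%). With the replicate number as a block 1 member was called, Hspb1, beside 3.37% of all genes. No KO library is numbered 4, so the block also takes WT 4 out of the comparison and adds no separate result on Hspb1.

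**Figure D4:**
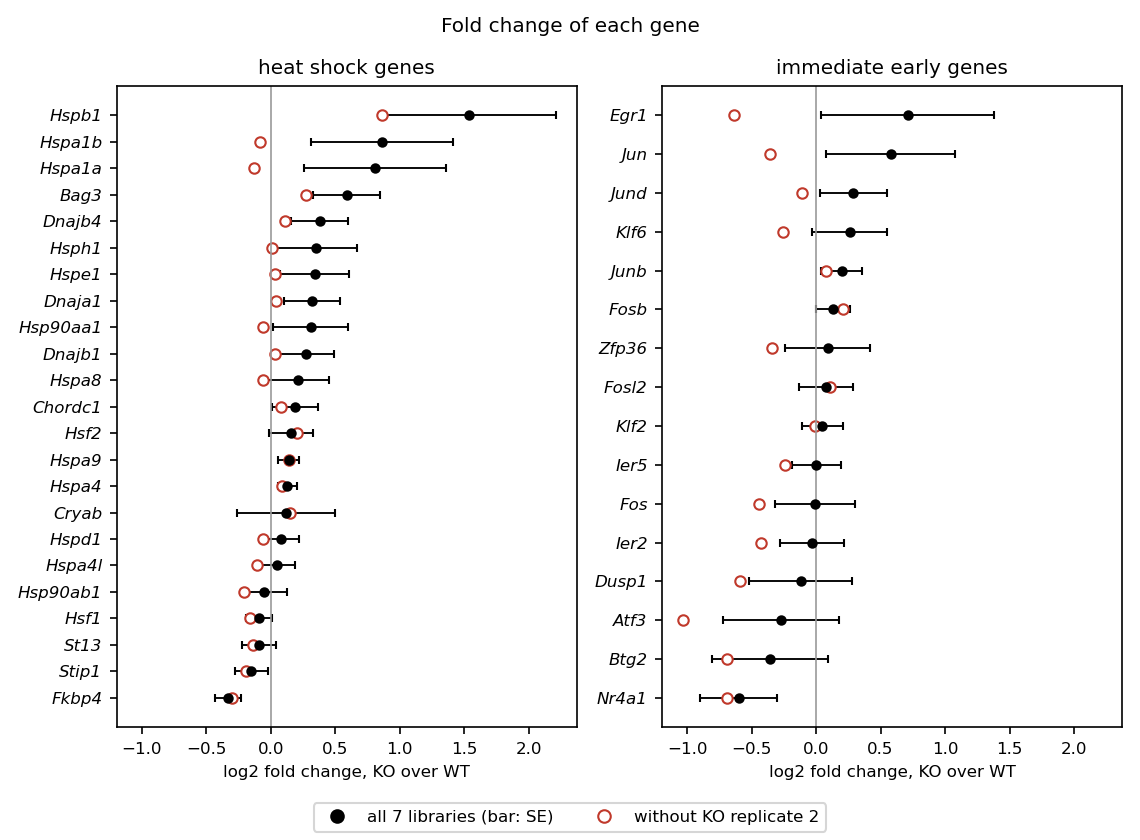
Log2 fold change, KO over WT, of each heat shock gene (left) and immediate early gene (right) that passed the filter. Black points are all 7 libraries with a bar of 1 SE, and open red circles leave out KO 2. Open circles lie left of the black points for most genes, below 0 for Hspa1a and Hspa1b among others and furthest left for Atf3.

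Other genes of these pathways, listed by role, were read from the same edgeR fit. Of 41 other chaperone and cochaperone genes tested, 0 were called, 6 had an unadjusted p below 0.05 (2 higher and 4 lower in KO), and the median log2 fold change was 0.00. The 6 are 14.6% of those tested, beside 18.0% of all genes. The smallest p values were those of Hspa12a, a distant Hsp70 relative, and Bag5, an Hsp70 nucleotide exchange factor. Hspa12a had 17.9, 23.04 and 27.2 CPM in KO and 29.9, 39.7, 38.1 and 32.7 CPM in WT (log2 fold change -0.63, SE 0.16, adjusted p 0.108). Bag5 had 35.9, 44.4 and 42.5 CPM in KO and 53.9, 51.9, 52.2 and 50.003 CPM in WT (-0.35, adjusted p 0.113). DESeq2 called both and no other gene of the list, with adjusted p values of 0.00708 and 0.0328, beside 5.71% of all genes. Subunits of TRiC and prefoldin, the cytosolic folding chambers, were flat, with 0 of 14 called, a median of 0.00 and a range from -0.20 to 0.18. None of them had an unadjusted p below 0.05, the smallest being those of Pfdn4 (log2 fold change -0.20, adjusted p 0.302) and Cct4 (-0.14, adjusted p 0.368), and DESeq2 called 0.

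Of 50 other immediate early genes tested, edgeR called 0 and 6 had an unadjusted p below 0.05 (5 higher and 1 lower in KO). The 6 are 12% of those tested, beside 18.0% of all genes (9.15% higher and 8.85% lower). The median over the list was 0.04 on the log2 scale. DESeq2 called 1, Ccn2, beside 5.71% of all genes. Ccn2 and Ccn1, matricellular proteins induced through SRF and YAP and abundant in stromal cells, had the smallest p values. Ccn2, with 19 to 53 counts in KO and 2 to 16 counts in WT, had 1.09, 2.06 and 0.699 CPM in KO and 0.140, 0.0625, 0.0636 and 0.501 CPM in WT (log2 fold change 2.72, SE 0.69, adjusted p 0.111 by edgeR, 0.00760 by DESeq2). Ccn1 had 9.28, 15.5 and 3.97 CPM in KO and 3.38, 1.88, 1.43 and 5.32 CPM in WT (1.67, adjusted p 0.152), with WT 4 above KO 3. The summed endothelial markers given above were also higher in KO without overlap. Summed fibroblast and muscle markers were highest in KO 2, as Ccn1 and Ccn2 were, but Acta2, the most abundant of them, was highest in KO 1. The part of either marker list in the Ccn1 and Ccn2 values was not tested. Of 23 upstream kinases and factors tested, edgeR called 0, and 4 had an unadjusted p below 0.05, all lower in KO. The 4 are 17.4% of those tested, close to the 18.0% of all genes, of which 8.85% were lower. The median over the list was 0.01 on the log2 scale, and DESeq2 called 2, beside 5.71% of all genes. Elk3, a ternary complex factor that represses SRF targets, had 15.9, 17.8 and 19.9 CPM in KO and 26.8, 34.1, 29.5 and 24.1 CPM in WT (-0.68, SE 0.14, adjusted p 0.0923 by edgeR, 0.000838 by DESeq2). Rps6ka1 (RSK1), a kinase below ERK, had 116, 144.5 and 140.0 CPM in KO and 207, 194.5, 185 and 161 CPM in WT (-0.48, adjusted p 0.0975 by edgeR, 0.00474 by DESeq2).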

How the data were processed

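Raw counts of reads per gene were deposited as 1 table, made with rsubread per the file's name. The submitters' processing notes name mm10 and DESeq2; the annotation and the treatment of multiply mapping reads are not stated in the labels. Nextera XT libraries do not mark strand, so members with exons opposite another gene (Junb and Prdx2, Hspd1 and Hspe1, Dusp1 and Ergic1, among others) may hold its reads. Rows with no symbol (1036 of 27179, 0.376% to 0.424% of counts) were left out. In R 4.3.3, edgeR 4.0.16 kept 12759 genes by filterByExpr, scaled libraries by TMM and tested KO against WT with a quasi-likelihood F test on 5 residual degrees of freedom, with Benjamini-Hochberg adjustment over all genes and a threshold of 0.05. CPM use the TMM factors, and log2 CPM a prior count of 2. SE is the log2 fold change divided by the root of the F statistic. DESeq2 1.42.0 and limma 3.58.1 (voom) were alternatives. The edgeR step was tested on simulated data. No 2 libraries agreed within sampling noise. Members and lists were chosen with earlier results of these data known. Values in every library are given for members called by either tool, the 5 of each family with the smallest p, the most abundant and those at the core of each programme, and for others where useful. Same-numbered libraries were not treated as pairs. Of the cell type lists not described with the results, edgeR called 0 genes of the neutrophil, monocyte, T and NK cell, B cell, dendritic cell, eosinophil and mast cell, epithelial, fibroblast and muscle and red blood cell markers, and DESeq2 called 1, Klrb1c of the T and NK cells (higher in KO). Of the 7 epithelial markers tested, 3 (42.9%) had an unadjusted p below 0.05 by edgeR, beside 18.0% of all genes. Epcam, the most abundant, had 9.24, 29.5 and 92.6 CPM in KO and 135, 302, 261 and 136 CPM in WT, without overlap. Its log2 fold change was -2.25 (adjusted p 0.143 by edgeR, 0.0571 by DESeq2). Cdh1 and Scgb3a2 were higher in KO, with overlapping groups.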

Additional observations from a re-analysis of the deposited data

Results flagged for a closer look

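Among the 4 WT libraries, 1 library lay far from the other 3 for 5 of the 39 members, by the gap to the nearest library over the whole range, compared with Dixon's 95% critical value. Chance gives about 1 such group in 20 where values are normally spread. The members are not independent, as WT 4 was among the top 2 for 17 of 23 heat shock genes. The same share over all genes was not worked out, so an excess over chance cannot be read from the 5. WT 4 was high for Dnajb1 (301 CPM, ratio 0.957), Hspb1 (5.04 CPM, 0.901) and Chordc1 (172 CPM, 0.851). WT 3 was high for Fos (1502 CPM, 0.903), and WT 1 was low for Hspa4l (43.6 CPM, 0.932).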

How the results depend on the processing

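Across 12759 genes edgeR called 11, against 753 by DESeq2, 397 with no filter, 21 with a stricter filter, 46 by voom, 19 with a term for WT 4 and KO 3, 590 without both and 7 to 284 with 1 library left out. Members called numbered 0, against 1 by DESeq2, 2 without WT 4 and KO 3 and 0 to 1 with 1 library left out. Other chaperones called numbered 2 by DESeq2, 1 with no filter and 1 without WT 4 and KO 3. Other immediate early genes called numbered 1, 3 and 2 in the same fits, and 0 to 1 with 1 library left out. Upstream regulators called numbered 2, 2 and 2, and 0 to 2. Deviations of same-numbered KO and WT libraries from their group means had correlations of -0.01, 0.14 and -0.02. Differently numbered libraries reached 0.16 (KO 2 with WT 3). Of the 3 KO libraries, 0 correlated best with their own number, so the numbers were not taken as pairs. With the replicate block, calls numbered 430 over all genes, 1 among members, and 1, 2 and 1 in the 3 lists, and log2 fold changes were 0.07 for Hsp90ab1, -0.06 for Ier5 and -0.08 for Zfp36. No KO library is numbered 4, so the block leaves WT 4 no weight in KO against WT. That fit is therefore not separate from the one without WT 4. Other causes of these changes were not tested.

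The main fit called 0 members, so any sign that turned was of a member not called there. Signs turned in 55 of the alternative member values, with adjusted p values of 0.459 or more in those fits. Hspb1, Cryab and Hsf2 did not pass the stricter filter and have no value there. Ier5 was -0.05 with library sizes only, -0.01 with no filter and -0.10 by voom, which also gave -0.01 for Egr1 and -0.09 for Zfp36. Fos was 0.01 with the stricter filter and 0.03 with the term. Without WT 4 and KO 3, Hsp90ab1 was 0.16, St13 0.04, Stip1 0.00, Fos 0.01, Fosl2 -0.07 and Ier2 0.04. With 1 library left out, the log2 fold change ranged from -0.13 to 1.2 for Hspa1a, -0.08 to 1.24 for Hspa1b, -0.06 to 0.41 for Hspa8, -0.11 to 0.22 for Hspa4l, -0.06 to 0.50 for Hsp90aa1, -0.21 to 0.07 for Hsp90ab1, -0.17 to 0.33 for Cryab and -0.06 to 0.18 for Hspd1. Among early genes it ranged from -0.44 to 0.27 for Fos, 0.00 to 0.21 for Fosb, -0.07 to 0.25 for Fosl2, -0.36 to 0.89 for Jun, -0.11 to 0.47 for Jund, -1.03 to 0.07 for Atf3, -0.64 to 1.18 for Egr1, -0.06 to 0.20 for Klf2, -0.26 to 0.46 for Klf6, -0.43 to 0.15 for Ier2, -0.24 to 0.16 for Ier5, -0.59 to 0.33 for Dusp1, -0.34 to 0.37 for Zfp36 and -0.69 to 0.08 for Btg2. Family medians ranged from 0.01 to 0.40 (heat shock) and -0.35 to 0.26 (immediate early). Depth limits Egr3, which was not tested, and Hspb1, with 23 counts in its lowest library.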
